A study of Mus musculus with 28 samples.

Results

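The 29 genes described here make, sense and move cholesterol in the liver, and they are mostly targets or regulators of the sterol-regulated transcription factor SREBP2. They were taken by gene symbol from 2 count tables, 1 per sex, that each list 32544 genes, and all 29 symbols were found. The set holds 8 genes of the mevalonate arm, 11 genes from squalene to cholesterol, 4 regulators of SREBP processing, 3 genes of sterol carriage and acetoacetate use, and 3 genes of lysosomal export and surface uptake. Enough counts to be tested were found for 28 of the 29 in either sex, and not for Npc1l1.

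The 28 livers came from C57BL/6 mice that were 13 weeks old by the labels, and RNA of the whole organ was sequenced. Floxed controls (CT) and mice with c-Myc deleted in endothelial cells (EC-Myc KO, here KO) were all given tamoxifen at 5 weeks of age, and after a further 2 weeks they ate for 5 weeks either a control diet low in fat (CTD) or a diet rich in fat and cholesterol (HFC). The 8 groups of sex, genotype and diet held 4 males or 3 females each, 1 library per animal, and the labels do not name the endothelial Cre driver. The steps add up to 12 weeks, 1 less than the stated age, and CTD mice carry lower animal numbers than HFC mice throughout. The HFC numbers run from 412 to 420 and from 510 to 543. The later block holds CT females 510 and 512, CT male 543 and KO males 539 and 540, and no KO female. The labels name no cohort, and whatever the lower and higher numbers stand for cannot be told apart from diet. Whether the blocks of HFC numbers bear on KO against CT was not tested.

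Cholesterol is built from acetyl-CoA. The mevalonate arm yields farnesyl pyrophosphate, squalene synthase commits it to sterols, and a chain of oxidations, reductions and demethylations turns lanosterol into cholesterol. When membranes of the endoplasmic reticulum are poor in sterol, SCAP escorts SREBP2 to the Golgi, where it is cut and released to switch on these enzymes. When sterol is plentiful, INSIG proteins hold SCAP back, and the hepatocyte takes cholesterol from the diet instead of making it.

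Libraries held 22154774 to 22652285 counts in males and 18741939 to 19195502 in females. All 8 hepatocyte markers were present in every group, as whole liver should give. Their summed level was 64200 to 105000 TMM CPM (defined below) in males and 85700 to 169000 TMM CPM in females. Myc itself, measured in whole liver, was at 3.58 to 12.4 TMM CPM in the CT males and 3.09 to 20.1 TMM CPM in the KO males over both diets. It was at 4.37 to 12 and 4.64 to 20.5 TMM CPM in the CT and KO females. None of the 4 KO against CT contrasts called it in edgeR (log2 fold changes 0.45 to 0.81, adjusted p = 0.842 to 1), and other liver cells express it, so these values do not check the endothelial deletion. Levels above and below are CPM (counts scaled to library size) on the TMM scale, which scales each library so that most genes do not shift, and are written TMM CPM. The quasi-likelihood test of edgeR was run over all genes of a table, and an adjusted p under 0.05 was called. Log2 fold changes are HFC minus CTD, averaged over CT and KO unless a genotype is named, with an approximate standard error (SE). Values of a group are listed by rising animal number, which in males is 301, 305, 313 and 320 for CT CTD, 298, 303, 304 and 311 for KO CTD, 416, 417, 418 and 543 for CT HFC, and 414, 415, 539 and 540 for KO HFC. In females it is 306, 308 and 318 for CT CTD, 307, 309 and 317 for KO CTD, 420, 510 and 512 for CT HFC, and 412, 413 and 419 for KO HFC.

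DNA in front of 9 of the genes is shown first, because sterol control is read there. RefSeq windows on GRCm38.p6 were given for 24 of the 29 genes, and each sequence is a stretch of such a window that lies upstream of the gene's first base in GENCODE, 5′ to 3′ along the gene's own strand. For Hmgcs1 and Nsdhl the window's start site, and so the printed stretch, lies some bases further upstream of that first base. Capitals mark CCAAT or its reverse complement ATTGG (the box bound by NF-Y, a partner of SREBP2), the 8-letter core CACNCCAC of a sterol response element, and runs that differ from the longer element TCACNCCAC at no more than 1 of its 8 fixed letters.
Hmgcs1 (chr13:119690201-119690350, plus strand): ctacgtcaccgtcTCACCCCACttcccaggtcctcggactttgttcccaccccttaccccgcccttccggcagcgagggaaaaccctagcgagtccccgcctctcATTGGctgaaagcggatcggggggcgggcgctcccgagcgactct
Srebf2 (chr15:82147031-82147180, plus strand): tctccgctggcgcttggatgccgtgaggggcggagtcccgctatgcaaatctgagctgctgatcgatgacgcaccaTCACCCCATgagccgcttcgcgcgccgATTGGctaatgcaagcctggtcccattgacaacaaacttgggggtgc
Mvk (chr5:114444119-114444268, plus strand): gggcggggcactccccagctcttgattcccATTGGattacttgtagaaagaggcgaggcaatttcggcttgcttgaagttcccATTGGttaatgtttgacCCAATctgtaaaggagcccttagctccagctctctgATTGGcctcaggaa
Idi1 (chr13:8885356-8885500, plus strand): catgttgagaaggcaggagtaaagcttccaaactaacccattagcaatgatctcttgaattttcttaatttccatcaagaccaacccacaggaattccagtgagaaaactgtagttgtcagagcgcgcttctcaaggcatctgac
Ggps1 (chr13:14063489-14063638, minus strand): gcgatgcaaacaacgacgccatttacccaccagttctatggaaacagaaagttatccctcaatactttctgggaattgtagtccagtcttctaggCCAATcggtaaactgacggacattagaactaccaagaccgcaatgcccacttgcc
Cyp51 (chr5:4104747-4104896, minus strand): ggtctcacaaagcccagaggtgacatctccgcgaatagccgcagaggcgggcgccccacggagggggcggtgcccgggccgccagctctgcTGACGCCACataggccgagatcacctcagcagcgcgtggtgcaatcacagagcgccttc
Nsdhl (chrX:72918371-72918520, plus strand): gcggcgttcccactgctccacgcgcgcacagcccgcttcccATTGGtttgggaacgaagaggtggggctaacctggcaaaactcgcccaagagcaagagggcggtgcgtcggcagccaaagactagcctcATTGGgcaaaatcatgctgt
Hsd17b7 (chr1:169969242-169969391, minus strand): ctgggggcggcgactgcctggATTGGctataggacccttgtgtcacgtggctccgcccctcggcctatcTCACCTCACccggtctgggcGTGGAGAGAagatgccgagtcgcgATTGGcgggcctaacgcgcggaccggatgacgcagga
Npc2 (chr12:84773153-84773302, minus strand): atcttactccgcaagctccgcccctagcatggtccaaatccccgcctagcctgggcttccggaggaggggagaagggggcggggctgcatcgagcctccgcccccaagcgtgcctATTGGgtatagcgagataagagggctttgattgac
Hmgcs1 and Srebf2 stand for the classic sterol-controlled promoters, Mvk, Idi1, Cyp51, Nsdhl and Hsd17b7 for enzymes that changed with diet (the Idi1 stretch holds none of the marked letters), and Ggps1 and Npc2 for members that were not called lower in either sex. Printed stretches stop where the annotated gene begins. Nearer the window's start site, Idi1 holds 2 CCAAT boxes (45 and 14 bases before it). Cyp51 (29 bases before it), Hsd17b7 (12 bases) and Npc2 (6 bases) hold 1 each there. These count in the search below.

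In the 250 bases before each start, on both strands, CCAAT was found in 21 of the 24 genes, against 40.3% of 10610 tested genes with a window and 33.8% of all 32851 windows. The GC box GGGCGG was found in 20 of 24, against 60.5% of tested genes and 32.7% of windows. The strict sterol response element TCACNCCAC was found in 1 of 24, Hmgcs1, against 1.3% of tested genes and 1.05% of windows. Its core CACNCCAC, which lies within it, was found in 3 of 24 (Acat2, Hmgcs1 and Insig1), against 6.71% of tested genes and 5.29% of windows. With up to 1 fixed letter of TCACNCCAC changed it was found in 11 of 24, against 25.7% of tested genes and 20.7% of windows. The E-box CACGTG was found in 5 of 24, against 9.41% of tested genes and 6.02% of windows. A match is a description of letters, and the genes had from 1 to several windows each. The sequences show, for example, that Mvk holds 4 CCAAT boxes in the printed stretch and 5 in the 250 bases. Npc2, whose level rose in males, holds 1 in the printed stretch and 2 in the 250 bases.

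The HFC diet was accompanied by lower RNA for most of the pathway in both sexes. In males 21 of the 28 tested genes fell and 1, Npc2, rose, where 20.4% of all 14078 tested genes fell and 20.4% rose. In females 21 fell and none rose, where 8.98% of all 13999 tested genes fell and 10.4% rose. The median log2 fold change of the 28 was -0.69 in males and -0.84 in females, against -0.01 and 0.01 over all tested genes. The 2 sexes shared 20 of the fallen genes, Aacs was called in males alone and Fdft1 in females alone, and the test of the sex difference called neither. In 8 HFC against 8 CTD males, 15 of 28 genes had no HFC animal as high as any CTD animal, where 5.27% of all tested genes did so. In 6 against 6 females 18 of 28 did so, where 5.24% of tested genes did. The samples are bulk liver, so fewer cells of a type and less RNA per cell cannot be told apart.

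**Figure D1:**
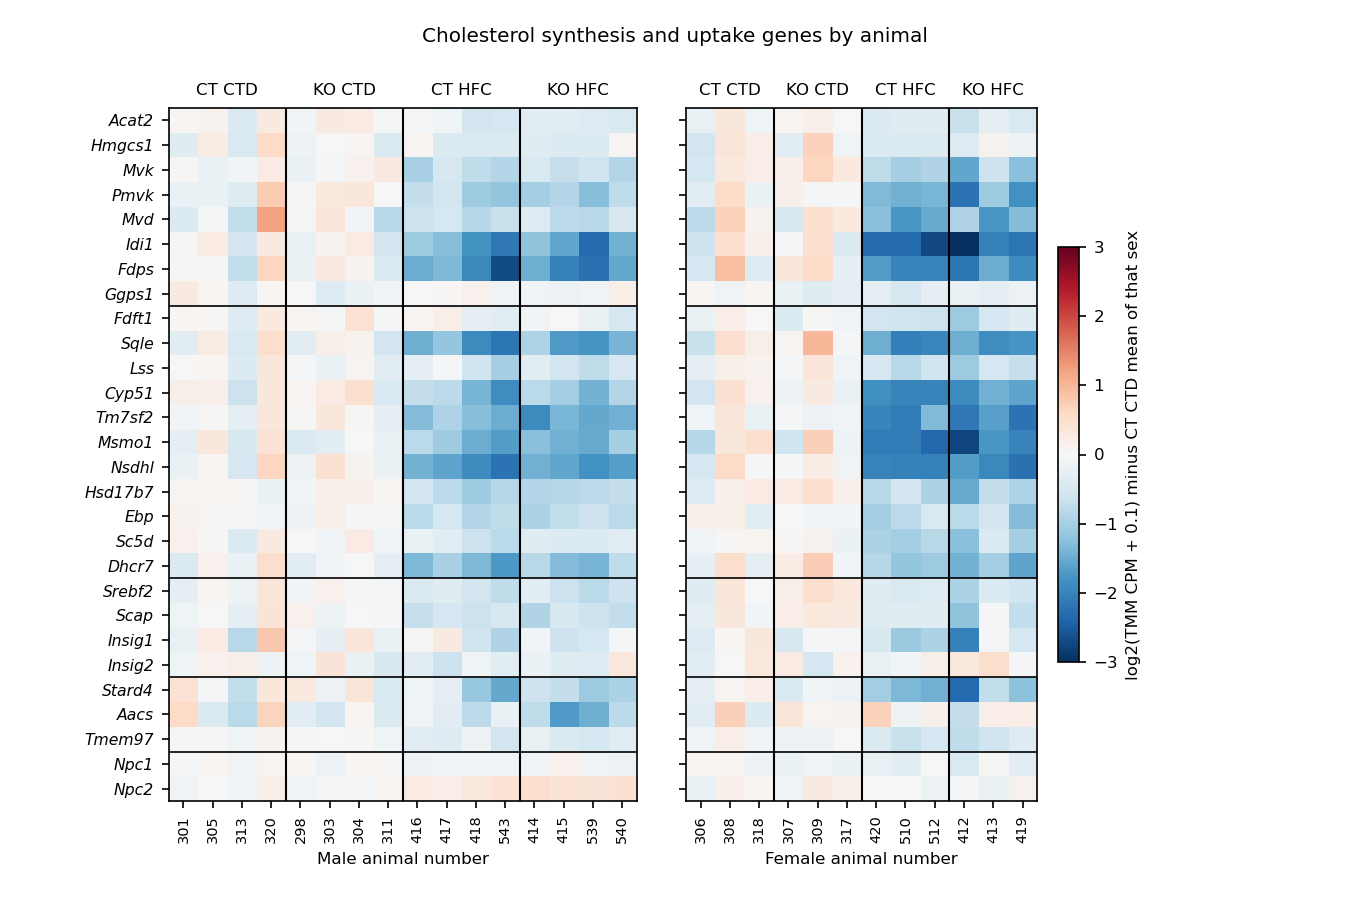
Level of the 28 tested genes (rows, by role) in each of 16 male and 12 female livers (columns), as the log2 difference of TMM CPM (0.1 added) from the mean of CT animals on CTD of the same sex, with blue below and red above. The HFC columns are blue through most enzyme rows in both genotypes, Ggps1, Insig2 and Npc1 are pale throughout, and Npc2 is red in the HFC males.

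The mevalonate arm was described first. Of its 8 genes 6 fell in males and 6 in females, where 20.4% and 8.98% of all tested genes fell. The median log2 fold change was -0.74 and -1.39.

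Idi1 (chromosome 13, 8885501 to 8892451, GRCm38, as for all positions here) makes dimethylallyl pyrophosphate from isopentenyl pyrophosphate. On CTD its level was 73.4, 84.8, 47.8 and 86 TMM CPM in CT males and 61.2, 76.7, 84.1 and 48.7 in KO males. On HFC it was 33.8, 29.2, 20.5 and 16.1 in CT males and 31, 24, 14 and 26.7 in KO males. Every HFC male lay below every CTD male, and the lowest CTD values belonged to CT 313 and KO 311. CT females held 38.2, 81.4 and 64.8 TMM CPM on CTD and 11.8, 11.5 and 8.91 on HFC. KO females held 56.7, 81.8 and 43.5 on CTD and 7.03, 14.4 and 12.8 on HFC. The 6 HFC females were again all below the CTD females. Idi1 fell in males (log2 -1.53, SE 0.20, adjusted p = 4.92e-05) and in females, where it had the largest fall of the 28 genes (-2.47, SE 0.24, adjusted p = 0.000122).

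Fdps (chromosome 3, 89093588 to 89101959) makes farnesyl pyrophosphate, the branch point to sterols and prenyl groups. In CT males it stood at 70.2, 69.8, 40.8 and 107 TMM CPM on CTD and 24.1, 26.5, 17.6 and 10.5 on HFC. In KO males it stood at 59.1, 82.5, 72.6 and 51.2 on CTD and 24.7, 16.5, 14.4 and 23.4 on HFC. The diets did not overlap, and the single lowest liver was CT HFC 543. Females read 42.2, 112 and 46 TMM CPM in CT and 77.4, 89.2 and 50.5 in KO on CTD. On HFC they read 18.7, 15.1 and 14.8 in CT and 13.1, 21.5 and 16.3 in KO. CT 308 was the highest CTD female, and no HFC female reached the lowest CTD female. Fdps had the largest fall of the 28 in males (log2 -1.81, SE 0.23, adjusted p = 3.53e-05) and fell in females (-2.07, SE 0.27, adjusted p = 0.000673). Its exons overlap those of another annotated gene on the same strand, Gm43738, by up to 197 bases.

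Pmvk (chromosome 3, 89454541 to 89469013) adds the second phosphate to mevalonate. CT males had 13.3, 13.4, 11.9 and 25.9 TMM CPM on CTD and 9.22, 10.5, 7.22 and 6.72 on HFC, and KO males had 15, 18.7, 19.5 and 15.1 on CTD and 7.52, 8.24, 6.24 and 9.05 on HFC. The diets were apart, with CT 320 well above the other CTD males. CT females had 18.2, 34.2 and 20.1 on CTD and 9.23, 8.47 and 8.86 on HFC, and KO females had 25.8, 22.2 and 22.8 on CTD and 4.93, 11 and 6.55 on HFC. All HFC females were below all CTD females. Pmvk fell in males (log2 -1.04, SE 0.16, adjusted p = 9.43e-05) and in females (-1.55, SE 0.20, adjusted p = 0.000381).

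Mvk (chromosome 5, 114444269 to 114460591) adds the first phosphate to mevalonate, and its promoter is printed above. Male CT livers held 7.23, 6.12, 6.6 and 8.3 TMM CPM on CTD and 3.52, 5.03, 4.07 and 3.78 on HFC, and male KO livers held 6.14, 6.72, 7.7 and 8.44 on CTD and 5.1, 4.3, 4.59 and 3.75 on HFC. The ranges of the diets did not meet. Female CT livers held 6.44, 11.6 and 10.7 on CTD and 5.42, 4.63 and 4.91 on HFC, and female KO livers held 10.3, 14.5 and 11.4 on CTD and 3.1, 5.97 and 3.81 on HFC. The diets were apart in females too, by the narrow gap between KO HFC 413 and CT CTD 306. The fall was called in males (log2 -0.75, SE 0.10, adjusted p = 2.28e-05) and in females (-1.22, SE 0.18, adjusted p = 0.000905).

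Mvd, which decarboxylates the mevalonate product to isopentenyl pyrophosphate, was measured at low levels. Its lowest, median and highest values were 2.16, 3.69 and 9.2 TMM CPM in CTD males and 2.11, 2.44 and 2.98 in HFC males. In females they were 3.75, 7.56 and 10.6 on CTD and 1.9, 2.42 and 3.47 on HFC. The diets overlapped in males and not in females. Mvd fell in males (log2 -0.73, SE 0.25, adjusted p = 0.0285) and in females (-1.55, SE 0.26, adjusted p = 0.00167), and the male call was lost without CT CTD 320, KO CTD 303, CT HFC 418, KO HFC 415 or KO HFC 539, each left out alone, with an adjusted p of up to 0.0654. Acat2, which joins 2 acetyl-CoA in the cytosol, ranged over 26.9 to 43.5 TMM CPM on CTD and 24.6 to 35.2 on HFC in males, and over 28.9 to 43 and 21.1 to 28 in females. It overlapped between diets in males only, and it fell in males (log2 -0.40, SE 0.10, adjusted p = 0.00401) and in females (-0.47, SE 0.10, adjusted p = 0.00848). Reads of the near-identical neighbour Acat3 may share in its count.

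The 2 members of this arm that were not called were Hmgcs1 and Ggps1. Hmgcs1, HMG-CoA synthase and a classic sterol-controlled gene, carried the strict response element in the sequence above. It ranged over 50.3 to 105 TMM CPM in CTD males and 50.9 to 72.9 in HFC males, with CT HFC 416 and KO HFC 540 far above the other HFC males of their groups. In females it ranged over 37.9 to 90.1 on CTD and 41.1 to 59.3 on HFC. The diets overlapped in both sexes, with a log2 fold change of -0.25, SE 0.15 in males (adjusted p = 0.206) and -0.38, SE 0.19 in females (adjusted p = 0.176). Ggps1, which makes geranylgeranyl pyrophosphate for protein prenylation and not for sterols, ranged over 5.13 to 8.12 TMM CPM on CTD and 5.94 to 7.62 on HFC in males. Its log2 fold change was 0.06, SE 0.09 in males and -0.15, SE 0.10 in females, the smallest in absolute size among the 19 enzymes in each sex.

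The steps from squalene to cholesterol came next. Of these 11 genes 10 fell in males and 11 in females, where 20.4% and 8.98% of all tested genes fell. The median log2 fold change was -1.13 (range -1.76 to -0.19) and -1.38 (range -2.26 to -0.54).

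Nsdhl (chromosome X, 72918557 to 72958514) removes a methyl group from the sterol ring at the 4 position. CT males had 33.2, 40, 26.8 and 59.9 TMM CPM on CTD and 14.2, 12.6, 10.2 and 8.22 on HFC. KO males had 34.4, 52.1, 41.4 and 33.5 on CTD and 14, 12.9, 10.8 and 12 on HFC. Every HFC male lay far below every CTD male. CT females had 25.5, 55.1 and 35.8 on CTD and 9.09, 9.03 and 8.91 on HFC, and KO females had 35.7, 43.4 and 34.3 on CTD and 11.5, 9.57 and 7.72 on HFC. The HFC females were tightly grouped and all below the CTD females. Nsdhl fell in males (log2 -1.76, SE 0.17, adjusted p = 1.67e-06) and in females (-2.04, SE 0.17, adjusted p = 2.31e-05).

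Tm7sf2 (chromosome 19, 6062821 to 6068373) reduces the sterol double bond at position 14. In males it was at 63.7, 68.7, 54.7 and 84.7 TMM CPM in CT and 68.4, 84.3, 68.4 and 55.6 in KO livers on CTD. On HFC it was at 27.2, 35.2, 27.5 and 23.9 in CT and 17.8, 25.9, 23.1 and 24.7 in KO livers. The diets were widely apart, and KO HFC 414 was the lowest. In females it was at 65, 90.8 and 60.7 in CT and 68.6, 63.2 and 67.5 in KO livers on CTD, and at 17.8, 16.5 and 28.5 in CT and 16.1, 22.8 and 15.1 in KO on HFC. No HFC female came near the lowest CTD female. Tm7sf2 fell in males (log2 -1.43, SE 0.11, adjusted p = 1.62e-07) and in females (-1.84, SE 0.16, adjusted p = 2.41e-05), and its exons share up to 532 bases with Vps51 on the same strand, so some of its reads may belong to that gene.

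Hsd17b7 (chromosome 1, 169949535 to 169969241) reduces the sterol ketone left after demethylation. Males on CTD read 51.9, 51.7, 49.8 and 42.5 TMM CPM in CT and 45.8, 54.5, 54 and 51.5 in KO. Males on HFC read 33.2, 28.4, 23.4 and 26.9 in CT and 26.5, 27, 28.4 and 29.8 in KO. The values were close together within each diet and did not overlap between diets, which gave it the smallest adjusted p of the 28 in males (log2 -0.84, SE 0.07, adjusted p = 1.01e-07). Females on CTD read 18.6, 27 and 28.7 in CT and 29.1, 34.1 and 27 in KO, and on HFC 13.7, 16.2 and 12.6 and 8.49, 14.7 and 12.8. CT CTD 306 was the lowest CTD female and still above all HFC females, and the gene fell (log2 -1.07, SE 0.15, adjusted p = 0.000474).

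Ebp (chromosome X, 8185329 to 8193512), the sterol isomerase, had the highest level per kilobase of exon of the 29 genes in CT livers on CTD, at 62.3 TMM CPM per kb in males and 73.2 in females. CT males had 153, 147, 138 and 136 TMM CPM on CTD and 81.8, 99.4, 77.8 and 84.2 on HFC, and KO males had 130, 161, 139 and 140 on CTD and 74.6, 85.4, 93.3 and 81.5 on HFC. HFC and CTD males were fully apart. CT females had 185, 189 and 132 on CTD and 80.8, 97.3 and 121 on HFC, and KO females had 168, 157 and 157 on CTD and 95.6, 111 and 67.9 on HFC. HFC females were below CTD females, the nearest pair being CT HFC 512 and CT CTD 318. Ebp fell in males (log2 -0.75, SE 0.06, adjusted p = 1.62e-07) and in females (-0.79, SE 0.14, adjusted p = 0.00258).

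Sqle, Cyp51, Msmo1 and Dhcr7 fell in both sexes with no overlap between diets in either. Sqle, squalene epoxidase and a rate-controlling step of the sterol branch, had a lowest, median and highest level of 28.2, 39.2 and 60.6 TMM CPM in CTD males and 9.13, 13.8 and 22 in HFC males. In females the same values were 14.9, 26 and 47.5 on CTD and 5.65, 6.66 and 8.58 on HFC, and its log2 fold change was -1.49, SE 0.20 in males and -2.01, SE 0.24 in females. Cyp51, the lanosterol demethylase, went from 38.2, 67.3 and 83.9 to 16.5, 31.2 and 36.8 TMM CPM in males and from 37.2, 54.6 and 75.5 to 13.7, 15.1 and 20.2 in females, on the same 3 summary values. Its log2 fold change was -1.15, SE 0.20 in males and -1.81, SE 0.16 in females. Msmo1, the sterol methyl oxidase, went from 30.4, 35.5 and 57.5 to 13.3, 16.6 and 24.3 TMM CPM in males and from 28.5, 55.2 and 83.5 to 7.53, 11.8 and 15.1 in females. Its log2 fold change was -1.17, SE 0.16 in males and -2.26, SE 0.30 in females. Dhcr7, which reduces 7-dehydrocholesterol to cholesterol, went from 33.9, 42 and 66.9 to 13.9, 18.4 and 27 TMM CPM in males and from 21.5, 27.7 and 43.5 to 8.71, 11.9 and 14.5 in females. Its log2 fold change was -1.13, SE 0.15 in males and -1.38, SE 0.18 in females.

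Sc5d, Lss and Fdft1 had the log2 fold changes nearest to 0 of the 11 in males. Sc5d, the sterol desaturase and the second most abundant of the 29 per kilobase in CT males on CTD (51.2 TMM CPM per kb), ranged over 182 to 294 TMM CPM on CTD and 139 to 214 on HFC in males. In females it ranged over 191 to 236 and 91.8 to 162, and it fell in males (log2 -0.44, SE 0.10) and in females (-0.88, SE 0.13). Lss, which closes the rings of lanosterol, ranged over 21.4 to 36.5 TMM CPM on CTD and 14.2 to 27.4 on HFC in males, and over 24.3 to 38.3 and 14 to 20.8 in females. It fell in males (log2 -0.45, SE 0.13) and in females (-0.74, SE 0.13). Both overlapped between diets in males and not in females. Fdft1, squalene synthase, ranged over 34.9 to 61.9 TMM CPM on CTD and 31.9 to 52.6 on HFC in males, and over 64 to 98.3 and 40.4 to 66.4 in females. It overlapped in both sexes, with a log2 fold change of -0.19, SE 0.12 in males (adjusted p = 0.203) and a called fall of -0.54, SE 0.13 in females (adjusted p = 0.011). Exons of Fdft1 share up to 774 bases with Ctsb on the opposite strand. No strand setting of the counts is given, so some of its reads may belong to Ctsb in either sex.

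**Figure D2:**
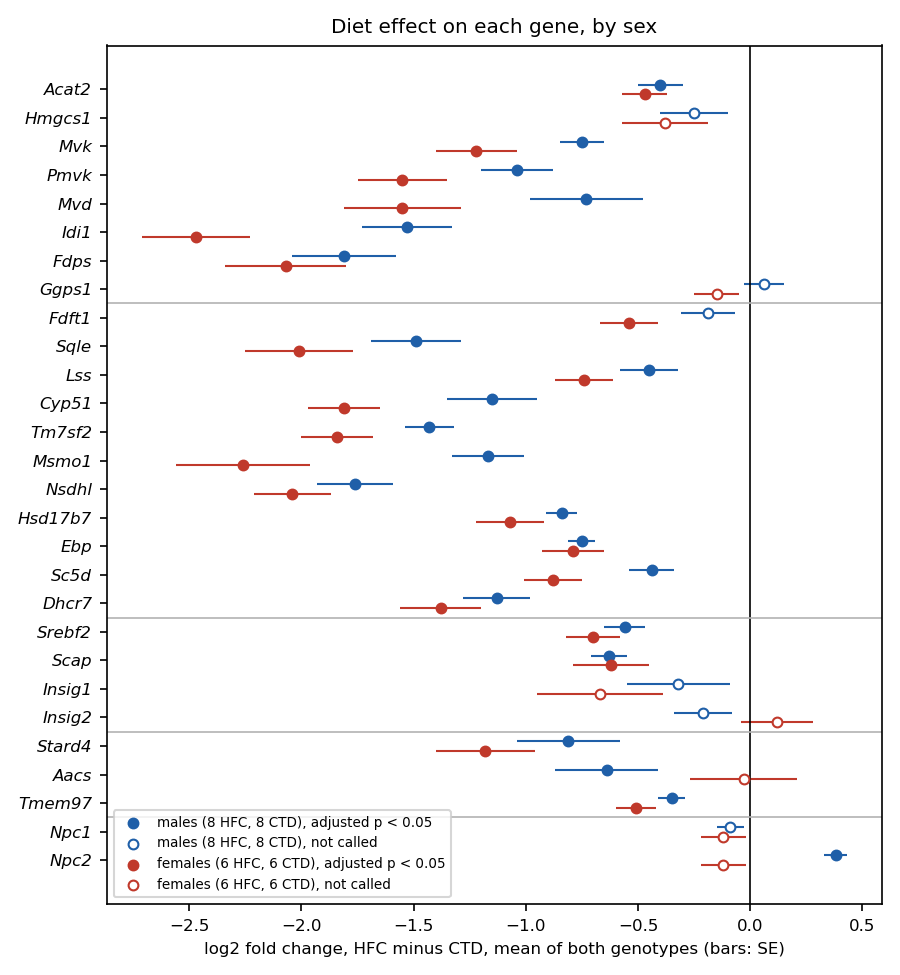
Log2 fold change of each of the 28 genes, HFC minus CTD, as the mean of both genotypes, in males (blue, 8 against 8) and females (red, 6 against 6), with bars of 1 approximate SE and filled points where edgeR's adjusted p was under 0.05. The falls run from -0.35 (Tmem97) to -1.81 (Fdps) in males and from -0.47 (Acat2) to -2.47 (Idi1) in females among called genes, and Npc2 in males is the sole called point above 0.

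The regulators of SREBP processing had a median log2 fold change of -0.44 in males and -0.64 in females. Of the 4, Srebf2 and Scap fell in both sexes, and Insig1 and Insig2 were called in neither. Over all tested genes 20.4% fell in males and 8.98% in females.

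Srebf2 (chromosome 15, 82147181 to 82205379), which encodes SREBP2 and is among its own targets, was at 36.6, 46.5, 40.2 and 57.6 TMM CPM in CT and 42, 48.8, 43.2 and 42.6 in KO males on CTD. It was at 33.2, 34.4, 30.6 and 26.3 in CT and 35.6, 28.5, 25.5 and 28.7 in KO males on HFC. The diets were just apart, KO HFC 414 being the highest HFC male and CT CTD 301 the lowest CTD male. CT females had 26.9, 44.1 and 34.7 on CTD and 26.9, 25.1 and 26.6 on HFC, and KO females had 38.9, 48 and 43.2 on CTD and 17.8, 25.9 and 22.7 on HFC. CT CTD 306 lay at the level of the CT HFC females, so the diets overlapped in CT and not in KO. Srebf2 fell in males (log2 -0.56, SE 0.09, adjusted p = 0.000138) and in females (-0.70, SE 0.12, adjusted p = 0.00221). In CT females alone the fall was -0.43, SE 0.17, adjusted p = 0.196, in KO females -0.97, SE 0.17, adjusted p = 0.00544, and the difference of the 2 was -0.55, SE 0.25 with an unadjusted p of 0.0446 and an adjusted p of 0.991.

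Scap (chromosome 9, 110333288 to 110384950), the sterol-sensing escort of SREBP2, stood at 107, 119, 98.5 and 154 TMM CPM in CT and 129, 106, 117 and 114 in KO males on CTD. On HFC it stood at 73.3, 82.6, 74.8 and 85.1 in CT and 63.3, 84.2, 76.8 and 70.9 in KO males. The diets did not overlap in males. CT females had 68.8, 106 and 79.1 on CTD and 65.2, 64.2 and 64.7 on HFC, and KO females had 96, 104 and 101 on CTD and 36.2, 80.8 and 50.2 on HFC. KO HFC 413 lay above the 2 lowest CT females on CTD, so the diets overlapped with both genotypes pooled. Scap fell in males (log2 -0.63, SE 0.08, adjusted p = 1.86e-05) and in females (-0.62, SE 0.17, adjusted p = 0.0216), and the female call was lost without CT CTD 308, CT HFC 420 or KO HFC 419, with an adjusted p of up to 0.0583.

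Insig1 (chromosome 5, 28071363 to 28078662) encodes the retention protein that is itself induced by SREBP2. In males its levels were 118, 162, 76.4 and 239 TMM CPM in CT and 134, 116, 177 and 120 in KO on CTD, and 139, 166, 91 and 73.4 in CT and 130, 88.3, 95.1 and 131 in KO on HFC. The spread within a group was as wide as any distance between the diets, and CT CTD 320 and CT CTD 313 were the extremes on CTD. CT females had 120, 163 and 197 on CTD and 112, 72.9 and 80.8 on HFC, and KO females had 113, 151 and 153 on CTD and 38.1, 151 and 109 on HFC. The CT females did not overlap between diets and the KO females did, where KO HFC 412 was lowest and KO HFC 413 was level with the CTD animals. The log2 fold change was -0.32, SE 0.23, adjusted p = 0.288 in males and -0.67, SE 0.28, adjusted p = 0.118 in females, where it was called without KO HFC 413 (-0.89, adjusted p = 0.0338).

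Insig2 (chromosome 1, 121304353 to 121332589), the second retention protein, is not a typical SREBP2 target. Males had 150, 180, 187 and 148 TMM CPM in CT and 152, 216, 145 and 119 in KO on CTD, and 133, 106, 151 and 131 in CT and 145, 129, 127 and 205 in KO on HFC. The diets overlapped, with KO CTD 303 and KO HFC 540 highest. Females had 61.4, 77.5 and 94.8 in CT and 90.8, 53.4 and 84.5 in KO on CTD, and 65.6, 73 and 86.9 in CT and 95.4, 111 and 74 in KO on HFC. The diets overlapped there too. The log2 fold change was -0.21, SE 0.13, adjusted p = 0.21 in males, where it was called without KO HFC 540 (-0.30, adjusted p = 0.0463), and 0.12, SE 0.16, adjusted p = 0.625 in females.

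**Figure D3:**
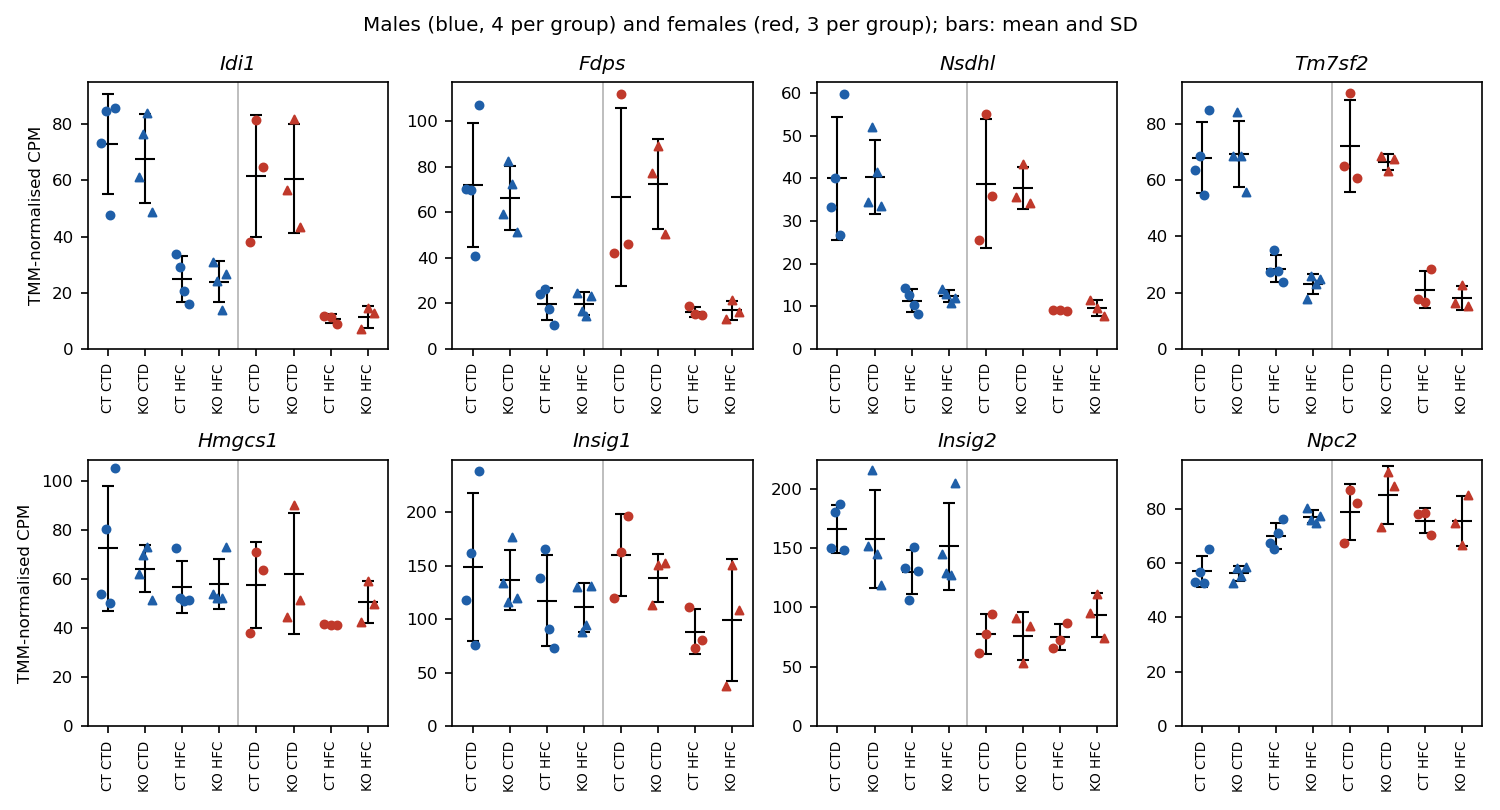
TMM CPM of 8 of the genes in every animal, by genotype and diet, with males in blue (4 per group), females in red (3 per group), CT as circles, KO as triangles, and bars of the mean and SD. Idi1, Fdps, Nsdhl and Tm7sf2 show HFC animals all below CTD animals, Hmgcs1, Insig1 and Insig2 overlap, and Npc2 is higher on HFC in males and level in females.

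Of the 3 genes of sterol carriage and acetoacetate use, all fell in males and 2 in females, where 20.4% and 8.98% of all tested genes fell. Stard4 (chromosome 18, 33199355 to 33213862) carries cholesterol between membranes in the cytosol. Male values were 132, 96.4, 58.8 and 125 TMM CPM in CT and 121, 88, 127 and 72.1 in KO on CTD, and 89.6, 80.5, 45 and 33.9 in CT and 64.2, 59.7, 46.5 and 50.9 in KO on HFC. CT males overlapped between diets, because CT CTD 313 was low and CT HFC 416 and 417 were high, and KO males did not. Female values were 59, 77.3 and 83.5 in CT and 53.3, 68.2 and 64.4 in KO on CTD, and 35.3, 28.2 and 26.8 in CT and 14.4, 43.2 and 30.7 in KO on HFC. All HFC females were below all CTD females, KO HFC 412 lowest. Stard4 fell in males (log2 -0.81, SE 0.23, adjusted p = 0.0114) and in females (-1.18, SE 0.22, adjusted p = 0.0041).

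Tmem97 (chromosome 11, 78541817 to 78550777), a sterol-binding membrane protein that interacts with NPC1, had 47, 49.5, 43.9 and 52 TMM CPM in CT and 46.5, 47.7, 48.9 and 44.2 in KO males on CTD. It had 37.8, 36.6, 43.3 and 32.5 in CT and 41.1, 35.8, 33.5 and 37.8 in KO males on HFC. The diets were just apart, CT HFC 418 being the highest HFC male and CT CTD 313 the lowest CTD male. CT females had 61.9, 77.3 and 62.3 on CTD and 49.3, 41.7 and 46.9 on HFC, and KO females had 59.7, 59.7 and 67 on CTD and 39.6, 44.4 and 50.8 on HFC. The diets were apart in females as well. The fall was small in males (log2 -0.35, SE 0.06, adjusted p = 0.000211) and in females (-0.51, SE 0.09, adjusted p = 0.0027).

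Aacs (chromosome 5, 125475814 to 125517410) activates acetoacetate for lipid synthesis. CT males had 86.7, 42.9, 33.4 and 92.9 TMM CPM on CTD and 54.1, 46.7, 33.7 and 50.8 on HFC, and KO males had 46.2, 39.6, 60.7 and 42.8 on CTD and 34.5, 17.9, 21.1 and 33.8 on HFC. The CT males overlapped between diets and the KO males did not, with CT CTD 301 and 320 far above the rest. CT females had 20.5, 41.4 and 19.2 on CTD and 41.2, 22.9 and 28 on HFC, and KO females had 32.6, 27 and 27.5 on CTD and 15.4, 29.3 and 29 on HFC. The diets overlapped fully in females. The male fall was called (log2 -0.64, SE 0.23, adjusted p = 0.0381) and was lost without CT CTD 301, CT CTD 320, KO CTD 298, KO CTD 304, CT HFC 417, CT HFC 418, CT HFC 543, KO HFC 415 or KO HFC 539, each left out alone, with an adjusted p of up to 0.0787. The female value was -0.03, SE 0.24, adjusted p = 0.946, and it turned positive without CT CTD 308 (0.19), KO CTD 307 (0.02), CT HFC 510 (0.06) or KO HFC 412 (0.09).

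Neither of the 2 tested genes of lysosomal export was called lower in either sex. Npc1 and Npc2 hand cholesterol out of the lysosome, Npc2 in the lumen and Npc1 in the membrane, and Npc1l1 takes it up from bile or the gut lumen. Npc2 (chromosome 12, 84754562 to 84773152) read 53.1, 56.8, 52.8 and 65 TMM CPM in CT and 52.6, 58.3, 55.3 and 58.6 in KO males on CTD. It read 67.2, 65.2, 71.1 and 76.1 in CT and 80.3, 75.8, 74.7 and 77.4 in KO males on HFC. The HFC males lay above all CTD males, narrowly so at the closest pair, CT HFC 417 and CT CTD 320. Among all tested genes 6.55% were higher in all 8 HFC males than in all 8 CTD males. CT females read 67.2, 86.8 and 82.1 on CTD and 77.9, 78.4 and 70.4 on HFC, and KO females read 73.2, 93.6 and 88.3 on CTD and 74.6, 66.7 and 84.9 on HFC. The diets overlapped in females. Npc2 rose in males (log2 0.38, SE 0.05, adjusted p = 2.3e-05) and had a log2 fold change of -0.12, SE 0.10, adjusted p = 0.44 in females.

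Npc1 (chromosome 18, 12189692 to 12236400) had 221, 237, 212 and 242 TMM CPM in CT and 238, 203, 237 and 232 in KO males on CTD, and 205, 214, 216 and 208 in CT and 209, 248, 213 and 201 in KO on HFC. In females it had 200, 203 and 171 in CT and 165, 175 and 165 in KO on CTD, and 164, 150 and 190 in CT and 140, 194 and 152 in KO on HFC. The diets overlapped within each sex and genotype, with a log2 fold change of -0.09, SE 0.06, adjusted p = 0.224 in males and -0.12, SE 0.10, adjusted p = 0.444 in females. Npc1l1 (chromosome 11, 6211013 to 6230143), which mouse liver makes far less of than intestine, had 10 counts in all 16 male libraries and 8 counts in all 12 female ones. It was at 0 in 12 males and 8 females, and its highest counts were 4 and 5, so levels this near the limit of 3 counts that a count of 0 allows were not compared.

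Markers of other cell types were also called with diet, and their part in the results was not tested. Over all tested genes 20.4% rose and 20.4% fell in males, and 10.4% rose and 8.98% fell in females. Counts of 1 or 2 in a list are not read as a result about that cell type. All 10 macrophage and Kupffer cell markers rose in males, and their summed level was 262 to 472 TMM CPM in CTD males and 619 to 1010 in HFC males. In females 2 of the 10 rose, and the sum was 255 to 712 TMM CPM on CTD and 436 to 1340 on HFC. T and NK cell markers rose in 4 of 6 cases in each sex, with a median log2 fold change of 1.36 in males and 1.19 in females. Their sum was lower in level, at 4.61 to 5.88 TMM CPM in CTD males and 6.75 to 12.5 in HFC males, and at 3.25 to 7.69 and 5.5 to 16.4 in the females. Endothelial markers rose in 3 of 7 cases in males and 1 of 7 in females, stellate cell markers in 2 of 6 in each sex, and cholangiocyte markers in 3 of 5 and 0 of 5. Of the enterocyte markers 1 rose in each sex, of 3 and 2 tested, and 1 exocrine pancreas marker was tested and fell in both sexes. No adipocyte marker had enough counts to be tested. Of 8 hepatocyte markers 6 fell in each sex, with a median log2 fold change of -0.39 in males and -0.70 in females. Of the 19 enzymes of synthesis 16 in males and 15 in females had a log2 fold change below that hepatocyte median, and 7 in each sex lay below the lowest single hepatocyte marker (-1.14 and -1.71).

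Animals of 1 diet also differed in the level of the enzymes. The median over the 19 enzymes of the log2 difference from the CT CTD mean was -0.42 to 0.34 in the 8 CTD males and -1.06 to -0.54 in the 8 HFC males. It was -0.38 to 0.37 in the 6 CTD females and -1.46 to -1.04 in the 6 HFC females. CT CTD 313 and CT CTD 306 were the lowest CTD male and female, with 18 and 17 of 19 enzymes below the CT CTD mean, and CT CTD 320 and CT CTD 308 had 2 and 1 below it. Among the other CTD animals the number ran from 3 (CT CTD 305) to 17 (KO CTD 311), with 8 in CT CTD 301 and in CT CTD 318. In HFC animals 16 to 19 enzymes lay below that mean in males and 18 to 19 in females. KO HFC 412 had the lowest of the 28 medians, with all 19 enzymes below that mean. The median coefficient of variation of the enzymes over animals of a group was 24.3% in CT and 14.1% in KO males on CTD, and 19.6% and 15.6% on HFC. In females it was 30.3% in CT and 18.4% in KO on CTD, and the order was the other way on HFC, at 9.17% in CT and 23.9% in KO. The differences in spread were not tested.

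The fall on HFC was then taken within each genotype. CT males had 16 genes lower and 1 higher, where 9.4% and 10.6% of all tested genes were so called, and KO males had 16 lower and 1 higher, where 13.6% and 15.5% were. The 2 male genotypes shared 15 of the lower genes and Npc2, with Sc5d called in CT only and Acat2 in KO only. CT females had 12 lower and 0 higher (1.26% and 0.936% of all tested genes), and KO females had 19 lower and 0 higher (4.65% and 3.94%). All 12 genes called in CT females were also called in KO females, and the further 7 were Acat2, Mvk, Lss, Hsd17b7, Ebp, Srebf2 and Scap. The female counts leaned on single animals. In CT females the count was 5 without CT CTD 308, 4 without CT HFC 420, 4 without CT HFC 510 and 19 without KO HFC 412, and in KO females it was 12 without KO CTD 309. In these refits the share of all tested genes called lower moved in the same direction. It was 0.533%, 0.317%, 0.303% and 3.06% in those CT female refits and 2.36% in that KO female refit. Share and member count did not always move together. The share was 0.4% without CT CTD 306 and 2.33% without KO CTD 307. There the member counts stayed within 1.5 times of 12 and 19. Whether the genotypes differed was tested by the interaction, which called 0 of 28 members and 0% of all tested genes in each sex. The largest interaction was that of Dhcr7 in both sexes, at log2 0.49, SE 0.29, adjusted p = 0.883 in males and -0.59, SE 0.36, adjusted p = 0.991 in females.

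**Figure D4:**
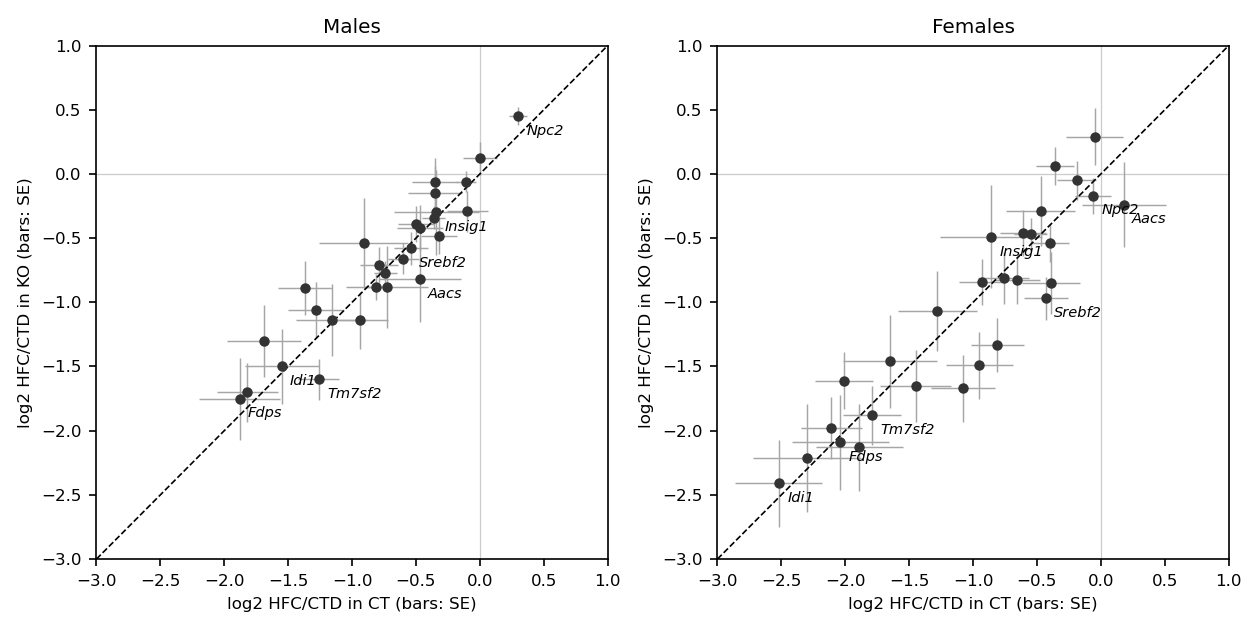
Log2 fold change on HFC in CT (x axis) against KO (y axis) for the 28 genes, in males and females, with bars of 1 approximate SE and a dashed line of equal change. Idi1 in females is the lowest point on both axes (-2.52 in CT, -2.41 in KO), and Npc2 in males is the highest (0.30 in CT, 0.45 in KO).

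The knockout itself was compared with CT on each diet, the contrast the study was built for. No member was called in any of the 4 comparisons, where 0% of all tested genes were called by edgeR in each. Log2 fold changes, KO minus CT, ran from -0.43 to 0.09 on CTD and -0.79 to 0.27 on HFC in males, with a median SE of 0.18. They ran from -0.29 to 0.35 on CTD and -0.32 to 0.31 on HFC in females, with a median SE of 0.22. Across them 1 member passed an unadjusted threshold of 0.05, which was Aacs on HFC in males. Its log2 fold change was -0.79, SE 0.33 (edgeR adjusted p = 0.958), and the groups overlapped, with 34.5 TMM CPM in the highest KO male and 33.7 in the lowest CT male. The share of all tested genes that passed it was 6.74% on CTD and 4.64% on HFC in males, and 3.19% and 2.22% in females. DESeq2 and limma also called no member, and over all genes DESeq2 called 7 lower and 4 higher on CTD and 3 lower on HFC in males. For Idi1 the log2 difference on HFC was -0.06, SE 0.29 in males and 0.08, SE 0.34 in females, and for Srebf2 it was -0.07, SE 0.13 and -0.25, SE 0.17. An adjusted p that misses the threshold does not show that KO and CT livers were alike in these genes.

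The log2 fold change was more negative in females than in males for each of the 19 enzymes, though edgeR called none of these differences. Their median (female minus male) was -0.38, against -0.03 over all tested genes, and with library totals Ebp alone turned positive. The hepatocyte marker median was also more negative in females (-0.70) than in males (-0.39), and its part was not tested. The sex difference of each gene was fitted over both tables together, which were normalised as 1 set here. Of 28 members 1 was called, Npc2 (log2 -0.52, SE 0.10, adjusted p = 0.00865), where 0.81% of all 14685 tested genes were called in either direction. The next by edgeR were Msmo1 (-1.12, SE 0.32, adjusted p = 0.115), Idi1 (-0.97, SE 0.32, adjusted p = 0.196) and Sc5d (-0.47, SE 0.16, adjusted p = 0.217), none of which passed. In all 9 of the 28 reached an unadjusted p under 0.05, where 11.5% of all tested genes did. Sex and table go together in this comparison. Scaled by library totals, the Npc2 difference was -0.45 and was not called (adjusted p = 0.116).

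The neighbours of the pathway were read from lists of related genes. Over all tested genes 20.4% fell and 20.4% rose in males, and 8.98% fell and 10.4% rose in females. Of 9 tested genes that act beside the enzymes or share SREBP control, 6 fell in males and the same number in females. They included Acss2, which makes acetyl-CoA from acetate (log2 -1.24, SE 0.15, in males and -1.76, SE 0.26, in females), and Cyb5r3, the cytochrome b5 reductase that feeds electrons to sterol desaturation (-0.83, SE 0.08, and -0.81, SE 0.16). Me1, malic enzyme, fell by 1.06 and 0.67 on the log2 scale, and Rdh11, a retinol dehydrogenase, fell by 0.90 and 0.88. Of 12 genes of cholesterol esters, receptors and transfer, 6 rose and 3 fell in males and 5 rose and 1 fell in females. The falls were near the share of all tested genes in both sexes. Soat2 and Soat1, which esterify cholesterol, rose by 0.88 and 1.09 log2 in males and by 0.91 and 0.76 in females, and Gramd1b, a carrier of plasma membrane cholesterol to the endoplasmic reticulum, rose by 1.63 and 1.43. Its relative Gramd1c fell by 0.57 and 0.59.

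Of 12 genes of SREBP processing and sterol-regulated degradation, 3 rose and 2 fell in males and 1 rose in females, shares near those of all tested genes (20.4% and 20.4% in males, 10.4% higher in females). Rnf145, a ubiquitin ligase of the sterol-sensing machinery, rose in both sexes (log2 0.79, SE 0.10, and 0.81, SE 0.14). In males Erlin1, a scaffold of sterol-regulated degradation, rose by 0.54 log2. The proteases that cut SREBP2, Mbtps1 and Mbtps2, had log2 fold changes of -0.02 and 0.04 in males and 0.06 and -0.05 in females, and were not called. Of 12 genes of the prenyl, dolichol and ubiquinone branches, which leave the mevalonate arm at Fdps and Ggps1, 4 fell in males and 2 in females, where 20.4% and 8.98% of all tested genes fell. The largest of these falls was 0.31 on the log2 scale in males (Pdss2, ubiquinone side chain) and 0.35 in females (Rabggta, a Rab prenyl transferase), beside medians of -0.11 and -0.07 over the 12.

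Scaling bears on the size of every fall. CTD libraries had TMM factors of 0.842 to 0.999 and HFC libraries of 1 to 1.19. Scaled by library totals, the median of all tested genes moved to 0.24 log2 in males and 0.31 in females, and all-gene calls of the mean diet effect split as 750 lower and 7356 higher in males and 519 lower and 6079 higher in females. On that scale 14 members fell in males and 17 in females, with 12 and 15 of the 19 enzymes among them. The lower calls of Acat2, Lss, Mvd, Sc5d, Aacs, Stard4 and Tmem97 in males and of Acat2, Fdft1, Scap and Tmem97 in females ended there, as they did in limma on log2(CPM + 1). Ggps1, Npc1 and Npc2 were called higher in males and Insig2 in females. Fdft1, Insig2 and Npc1 in males and Ggps1, Aacs, Npc1 and Npc2 in females turned from negative to positive, and none of these was called lower there.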

How the data were processed

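Total RNA from whole liver was sequenced by BGI on its DNBSEQ platform, per the labels' protocols. The deposited data were, per sex, whole-number counts of reads by gene and the authors' CPM, which equals count over library total for 100% of values (tolerance 1e-04) and carries no further normalisation. FastQC, edgeR and GRCm38 (mm10) are named in the submitters' processing notes. No aligner, counting program or strand setting is given in the sources used here, so reads of overlapping genes (10 of the 29 members share exon bases with another gene) and of near copies are uncertain. All columns were used.

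The counts were scaled with TMM, filtered with filterByExpr and fitted per sex with a mean for each of 4 groups in edgeR 4.0.16 (R 4.3.3). Genes tested numbered 14078 (males), 13999 (females) and 14685 (the joint fit behind the female minus male difference). Contrasts were tested with the quasi-likelihood F test, with Benjamini-Hochberg adjustment across every gene tested. SE is the log2 fold change over the square root of F. Groups followed the labels, and nothing says more of how animals were housed or collected. No animals were paired, since each has its own number. No pair of animals within a group was as alike as sampling noise allows (chi-square per degree of freedom at least 11.9). edgeR's biological coefficient of variation came to 0.161 (males) and 0.199 (females).

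The members and lists were chosen with earlier results of these data known. Each animal is given for up to 4 members per role with the smallest p in males, for Srebf2, Insig1 and Insig2, and for members called in another contrast; related genes are up to 4 called ones per list by adjusted p, and Mbtps1, Mbtps2 and Rabggta were chosen after their values were seen. Some related genes that the rule would name are not reported here. Alternatives were DESeq2 size factors, library totals, no filter, DESeq2 1.42.0, limma 3.58.1 on log2 of deposited CPM plus 1, leaving out each animal, and 1 fit of both sexes. The motif search with mismatches was added after the exact search was seen, and an earlier form of it, with a longer motif and more mismatches, was replaced and is not reported. On simulated counts for the mean diet effect, 86% of 50 genes lowered by log2 1 were recovered in males and 68% in females, and 52% and 24% at 0.5. The simulation left 13878 of 14078 genes unchanged in males and 13799 of 13999 in females, and lowered the rest. Far more genes were called in the data, so the adjustment was stricter in the simulation and these shares do not carry over. Positions come from GENCODE M21, level per kb is mean TMM CPM over the union of exons, and promoters come from RefSeq on GRCm38.p6.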

Additional observations from a re-analysis of the deposited data

Results flagged for a closer look

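Among 119 sets of 4 male values (1 per gene and group with any count, and the enzyme median of each group), 5 held an animal far from the other 3. Chance flags about 1 in 20 such sets. Hmgcs1 was at 72.7 TMM CPM in CT HFC 416 and at 72.9 TMM CPM in KO HFC 540, each high against the rest of its group. Pmvk was at 25.9 TMM CPM in CT CTD 320, the animal with the highest enzyme levels among the CTD males. Npc1l1 was at 0.0798 TMM CPM in CT HFC 418 and at 0.0469 TMM CPM in KO CTD 298, where the other 3 animals of each group had no read, so a few reads set these 2 flags.

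The diet effect on Npc2 differed between the sexes by edgeR's test of the difference (female minus male log2 -0.52, SE 0.10, adjusted p = 0.00865). All 8 HFC males were above all 8 CTD males, and the 6 HFC and 6 CTD females overlapped. Macrophage markers were called higher on HFC in 10 of 10 cases in males and 2 of 10 in females, where 20.4% and 10.4% of all tested genes were. Their part in the Npc2 result was not tested.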

How the results depend on the processing

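DESeq2 size factors left the member counts of every comparison on the same side and within 1.5 times of the values reported. Library totals and limma on log2(CPM + 1), which both keep the shift that TMM removes, moved more. The count of members higher on HFC became 2 in KO males, 3 in the mean of males and 1 in the mean of females under each of the 2. Of all tested genes 39.6%, 52.3% and 43.4% were called higher in these contrasts under library totals. Under limma the shares were 39.3%, 52.4% and 42.6%. The count of members with a sex difference became 0 under library totals and under limma, and 2 under DESeq2 (Msmo1 and Npc2). Under library totals the log2 fold change turned positive for Fdft1 (0.05), Insig2 (0.05) and Npc1 (0.16) in males and for Ggps1 (0.15), Aacs (0.27), Npc1 (0.17) and Npc2 (0.18) in females. Under limma it did so for Hmgcs1 (0.03), Fdft1 (0.06), Insig2 (0.05) and Npc1 (0.16) in males and for Ggps1 (0.12), Aacs (0.25), Npc1 (0.16) and Npc2 (0.18) in females. With no filter on low counts Aacs lost its male call. The cause of these changes beyond the scaling was not tested.

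Leaving out 1 animal at a time gave 15 to 19 members lower in CT males, 15 to 19 in KO males, 4 to 19 in CT females, 12 to 20 in KO females, 19 to 22 in the mean of males and 20 to 22 in the mean of females. The sex difference called 1 to 2 members, 2 of them without KO HFC 413. The Aacs value in females ranged from -0.17 to 0.19 and turned positive in 4 of 12 refits (0.19, 0.02, 0.06 and 0.09). No KO against CT contrast and no interaction called a member under any alternative. No paired analysis was possible because each animal has its own number and the groups share none.

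Groups of 3 or 4 animals limit what can be called. Simulated falls of log2 0.5 were recovered in 24% of cases for the female mean. Few genes changed in that simulation, which made its adjustment stricter, so this share does not carry over to the data. Whole liver mixes cell types, whose markers also moved. Diet cannot be told apart from what the separate animal numbers of CTD and HFC mice stand for, and sex goes with the count table. The fitted errors are approximate, and reads carry no molecular identifiers, so the floor for Npc1l1 covers counting error only. With no strand or aligner given, reads of overlapping genes (Fdps, Tm7sf2 and 8 others) cannot be told apart.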
